A study of Mus musculus with 6 samples.

Results

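The cytosolic ribosomal protein genes are the genes for the proteins of the small (40S) and large (60S) subunits of the ribosome that reads nuclear messages. They were taken by symbol from the array platform's annotation (Rpl or Rps, a number and optional letters, with Rplp0, Rplp1, Rplp2 and Rpsa, and without Rps6k genes and names with -ps). Probe sets with exactly 1 symbol held 46 of these genes, and each was represented by its brightest probe set, by mean signal over the 6 arrays. A filter on low signal (a mean above 164.5, the 40th percentile) kept 44 of the 46 among 13040 genes tested, 21 of the small and 23 of the large subunit. Rpl3l, the large-subunit protein known from striated muscle, and Rps16 lay under it. Rplp1, Rpl3, Rpl5 and Rpl10 have no probe set with their symbol alone and are not analysed here.

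RNA from fat of NOD mice, inbred animals prone to autoimmune diabetes, was measured on 6 one-colour Affymetrix arrays. Of these, 2 came from mice treated with AAT (Alpha-1-antitrypsin), a serum protease inhibitor, that had reverted stably and no longer needed insulin, 2 from diabetic mice whose blood glucose had exceeded 300 mg/dl on 3 consecutive days, and 2 from normoglycemic females aged 10 weeks. The groups are marked AAT, DIA and NOR in the plots. All groups share the NOD background, and age and sex are labelled only in the normoglycemic mice, with no dose, duration or fat depot for any group. Whether the 2 arrays of each group represent different mice is not stated, and the p-values therefore reflect a spread that may be technical.

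Most ribosomal proteins are made in equal numbers for each ribosome, and the messages of ribosomal proteins are among the most abundant of growing cells. Most of these messages begin with a terminal oligopyrimidine (TOP) tract, a short stretch of C and T at the 5′ end through which the kinase mTOR, acting with the RNA-binding protein LARP1, controls their translation and stability. In fat, insulin is one of the signals that activate mTOR. The genes have many processed pseudogenes, so that some probe sets can bind RNA of several copies.

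Start sites are shown for 8 of the genes that the results turn on: 3 with lower signal in diabetic fat (Rps2, Rps3, Rps26), 3 that went the other way (Rpsa, Rps27, Rpl12), and Rps6 and Rpl27a for their tracts. Each sequence is 30 bases from RefSeq (GRCm38.p6), 15 before the annotated start and 15 from it on, on the gene's strand. Capitals mark a run of 7 or more bases that are each C or T and that overlaps the stretch within 20 bases of the start.
Rps2 (chr17:24720048-24720077, plus strand): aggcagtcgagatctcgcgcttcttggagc
Rps3 (chr7:99483695-99483724, minus strand): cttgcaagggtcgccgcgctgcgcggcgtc
Rps26 (chr10:128626492-128626521, minus strand): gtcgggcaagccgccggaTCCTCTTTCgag
Rpsa (chr9:120127751-120127780, plus strand): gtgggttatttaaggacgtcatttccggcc
Rps27 (chr3:90213634-90213663, minus strand): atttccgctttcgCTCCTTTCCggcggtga
Rpl12 (chr2:32961697-32961726, plus strand): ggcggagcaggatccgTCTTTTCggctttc
Rps6 (chr4:86857353-86857382, minus strand): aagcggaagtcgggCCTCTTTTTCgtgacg
Rpl27a (chr7:109519180-109519209, plus strand): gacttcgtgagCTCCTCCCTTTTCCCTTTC

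Among the tested genes 38 matched the RefSeq promoter table, whose windows are 300 bases long and reach beyond the 30 bases printed. Such a run was found near a start of 26 of them (68.4%), against 33.5% of all genes tested that have a window. The heptamer CCGGAAG, the core of sites bound by ETS factors, stood on either strand of the 300-base windows of 20 of the 38 (52.6%), against 18.01% of all genes tested. The octamer AAGATGGC, the core of YY1 sites, stood on either strand of those windows in 3 (7.9%), against 4.78%. The median log2 difference between diabetic and normoglycemic fat was −0.32 for the 26 genes with the run and −0.55 for the 12 without it. Not every match lies in the bases printed, and annotated starts can lie some bases from the true ones.

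Values are signals as the authors deposited them, computed by MAS5 on a linear scale, with every array scaled to the same trimmed mean. Differences are log2 differences of signal + 74 between group means ± SE, tested with limma over all 13040 genes, and adjusted p-values are by Benjamini-Hochberg. With 2 arrays a group, an exact permutation test could not give a p below 0.333, and precision is limited by the small number of arrays. The signals of different probe sets are not levels that can be set against each other.

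The arrays differed in technical measures, some of which moved with the groups. The 3′ to 5′ ratio of the beta-actin control, which rises with degraded or incompletely copied RNA, was 9.08 and 5.87 in AAT-treated, 15.2 and 15.5 in diabetic, and 3.63 and 4.30 in normoglycemic fat. The same ratio of the Gapdh control was 2.31 and 0.79 in AAT-treated, 2.46 and 4.63 in diabetic, and 0.91 and 0.95 in normoglycemic fat. From its lowest to its highest value the arrays ran AAT-treated 2, normoglycemic 1, normoglycemic 2, AAT-treated 1, diabetic 1, diabetic 2. The median level of the 44 genes, relative to each gene's mean over the 6 arrays, fell in that same order. It went from 0.55 to −0.43 (log2), and the part of RNA quality in it was not tested. Spiked-in hybridisation controls (18 probe sets) averaged 86286 on AAT-treated 2 and 128547 on normoglycemic 1. The remaining arrays had 25159 to 48494. AAT-treated 1 and 2 correlated at 0.889 and normoglycemic 1 and 2 at 0.876 over all probe sets. Both values were below those of AAT-treated 1 with diabetic 2 (0.943) and with normoglycemic 2 (0.939). Probe sets for 18S rRNA, the RNA of the small subunit, had a mean signal of 13277 and 8909 in AAT-treated, 25350 and 3620 in diabetic, and 13952 and 14569 in normoglycemic fat. The 2 diabetic arrays thus bracketed all others in 18S signal. For the ribosomal protein genes the median log2 gap, array 1 minus array 2, was 0.19 in diabetic fat. It was 0.15 in normoglycemic and −0.69 in AAT-treated fat. A relation of these genes to the 18S signal was not tested.

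Diabetic fat had lower signal than normoglycemic fat for nearly the whole set. Of the 44 genes 40 were lower, against 53.6% of all genes tested, with a median log2 difference of −0.43 (a fold of 1.34). The 2 diabetic arrays lay below both normoglycemic arrays for 30 of the 44 genes, where 24.5% of all genes did so, and above both for 1, where 20.2% did. The interquartile range of the genes was −0.70 to −0.22, and the median of all genes tested was −0.06. By limma 0 of 44 passed the adjusted threshold, as did 0 of 13040 genes (0.0%). At an unadjusted p under 0.05 there were 2 lower genes, a share near the 4.62% of all genes, and 0 higher ones (5.28% of all genes). With the hybridisation control signal as a covariate the median was −0.16, with 36 of 44 lower. The count of 2 was 5 of 44 when either AAT-treated array was left out, where 10.6% of all genes passed in either direction, and 1 of 44 without normoglycemic 2, where 14.9% did. The part of the control ratios in the difference was not tested. In bulk tissue fewer cells of a type that is rich in ribosomes and less RNA per cell cannot be told apart.

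**Figure D1:**
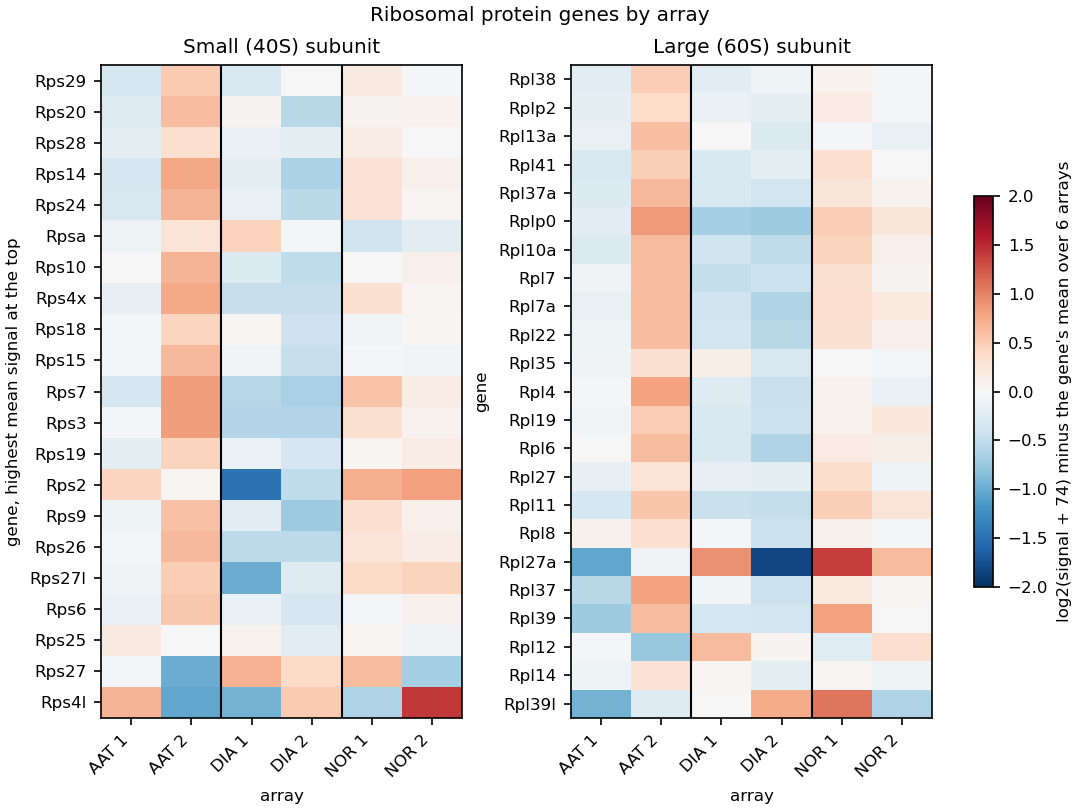
Level of each of the 44 genes on each array, as log2(signal + 74) minus the gene's mean over the 6 arrays (colour, from −2 to 2), with genes in rows by mean signal and arrays in columns. AAT-treated 2 was the highest array for 34 of the genes and diabetic 2 the lowest for 29.

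Both subunits were lower in diabetic fat by about the same amount. In the small subunit 19 of 21 genes were lower, with a median of −0.44 (lowest −1.76, highest 0.56), and in the large subunit 21 of 23, with a median of −0.41 (lowest −1.46, highest 0.30). Groups were apart, with diabetic fat lower, for 13 of 21 small-subunit and 17 of 23 large-subunit genes, beside 24.5% of all genes, and with diabetic fat higher for 1 and 0, beside 20.2%.

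Among small-subunit genes the clearest difference was that of Rps2, whose protein lies near the entry of the messenger RNA channel. It had signals of 6237 and 12266 in diabetic fat, against 28734 and 30971 in normoglycemic fat. Both diabetic arrays were below both normoglycemic ones, by −1.76 ± 0.43 (limma, unadjusted p = 0.00321, adjusted p = 0.459). Rps27l, a paralogue of Rps27 that p53 induces, had signals of 3329 and 5616 in diabetic fat, against 8821 and 9139 in normoglycemic fat. Its difference was −1.04 ± 0.39 (limma, unadjusted p = 0.026, adjusted p = 0.490), and the groups were again apart. These were the 2 genes with an unadjusted p under 0.05. Rps2 is represented by 1 kept probe set, whose ID ends in _x_at, the ending for probe sets that may bind other transcripts too. All 3 kept probe sets of Rps27l were lower, by −0.64 to −1.07. The brightest of them has the same ending, and the one that ends in _a_at differed by −0.64 ± 0.34.

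Other small-subunit genes were lower by less. Rps7, of the body of the subunit, had signals of 18041 and 17038 in diabetic and 39883 and 29635 in normoglycemic fat, a difference of −0.97 ± 0.48. Rps3, which also lies at the channel entry and takes part in DNA repair, had 12674 and 12793 in diabetic and 23605 and 20202 in normoglycemic fat, a difference of −0.77 ± 0.41. The diabetic arrays for Rps3 lay close together and below both others. Rps26, one of the proteins in contact with the message next to the exit site, had 7961 and 7970 in diabetic and 13757 and 12736 in normoglycemic fat (−0.73 ± 0.37). Rps14, a gene of the 5q− anaemia in humans, differed by −0.60 ± 0.51. Rps19, mutated in human Diamond-Blackfan anaemia, differed by −0.32 ± 0.39, and Rps6, the substrate of S6 kinase, by −0.27 ± 0.34; the groups were apart for both.

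Of the large subunit, the stalk protein gene Rplp0, whose product recruits elongation factors, had signals of 22457 and 21728 in diabetic fat, against 50141 and 42323 in normoglycemic fat. The diabetic arrays were below both others, by −1.06 ± 0.47 (limma, unadjusted p = 0.0523, adjusted p = 0.507). Rplp2, its partner in the stalk, was lower by less, with 53254 and 50784 in diabetic and 65267 and 57597 in normoglycemic fat (−0.24 ± 0.44). Rpl11, which binds Mdm2 when ribosome assembly is disturbed, had 10071 and 9858 in diabetic and 19207 and 16444 in normoglycemic fat (−0.83 ± 0.41), with the groups apart. Rpl13a, known as part of an inhibitor of translation in inflammation, had 56641 and 46627 in diabetic and 54552 and 51132 in normoglycemic fat, and the groups overlapped (−0.04 ± 0.46). That is the brightest of its 4 kept probe sets and the one with the smallest difference. The 4 ran from −0.68 to −0.04. Rpl41, the smallest of these proteins, differed by −0.41 ± 0.46.

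**Figure D2:**
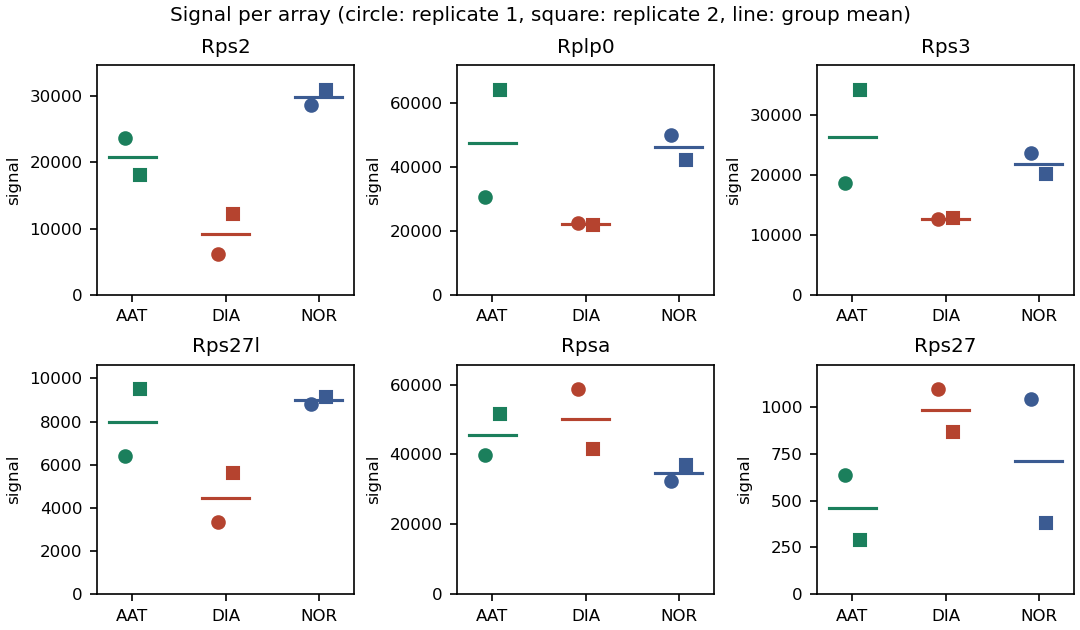
Signal on a linear scale from 0 for 6 of the genes, by group (AAT-treated, diabetic, normoglycemic), with a circle for replicate 1, a square for replicate 2 and a line at the group mean. Diabetic arrays were below both normoglycemic ones for Rps2, Rplp0, Rps3 and Rps27l, and above both for Rpsa.

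The set had 4 exceptions. Rpsa, the laminin-binding protein of the small subunit, had signals of 58715 and 41644 in diabetic fat, against 32378 and 37001 in normoglycemic fat, and was the 1 gene whose diabetic arrays lay above both (0.51 ± 0.43, limma, unadjusted p = 0.261). Rps27, a small-subunit protein with a zinc finger, had 1097 and 870 in diabetic and 1044 and 382 in normoglycemic fat, so that the groups overlapped (0.56 ± 0.50). It differed by −0.09 without normoglycemic 2. Rpl12, at the base of the stalk, differed by 0.30 ± 0.43 with overlapping groups. Rpl39l, a paralogue of Rpl39 known from the testis, had 147 and 296 in diabetic and 388 and 69.0 in normoglycemic fat, a spread in each group beyond the difference (0.15 ± 0.71). Rps27, Rpl12 and Rpl39l are represented by probe sets of mean signal under 2000, below most of the set.

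The genes were also described in 4 bands of mean signal, which is a property of each probe set and not a level of its message. The 11 genes with a mean signal above 40000 had a median of −0.24 between diabetic and normoglycemic fat, and 10 of them were lower. The 19 genes at 15000 to 40000 were all lower, with a median of −0.63, as were the 7 at 2000 to 15000, with a median of −0.73. The 7 below 2000, Rpl39, Rps25, Rps27, Rpl12, Rpl14, Rps4l and Rpl39l, had a median of −0.06, and 4 were lower. The size of the difference did not follow the mean signal in one direction over all 4 bands. Among the 37 genes above 2000 the differences tended to be less negative at higher mean signal (Spearman correlation 0.41). The 3 brightest probe sets, those of Rps29, Rpl38 and Rps20, differed by −0.23 ± 0.50, −0.16 ± 0.46 and −0.30 ± 0.49. Among the dimmest, Rpl14 had 222 and 177 in diabetic and 222 and 198 in normoglycemic fat.

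**Figure D3:**
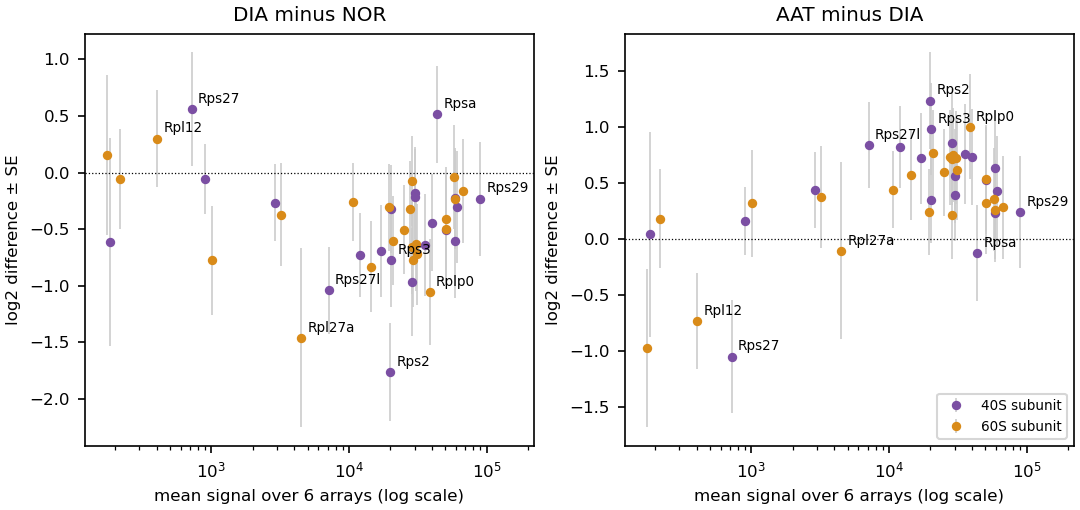
Log2 difference ± SE of each of the 44 genes (vertical) against its mean signal over 6 arrays (horizontal, log scale), for diabetic minus normoglycemic (left) and AAT-treated minus diabetic fat (right), with small-subunit genes in purple and large-subunit genes in orange. Genes at 15000 to 40000 lie on one side of 0 in each panel.

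Genes with several probe sets gave the same direction more often than not. The 88 kept probe sets of the set were lower in diabetic than in normoglycemic fat in 78 cases, with a median of −0.45. Among 19 genes with 2 or more kept probe sets, 5 had one of opposite sign, namely Rpl27, Rpl35, Rpl41, Rps24 and Rps9. Rpl22, which binds a viral RNA and restrains its paralogue, differed by −0.59 to −1.55 over its 3 probe sets. Another 103 kept probe sets name one of the genes beside other symbols, which kept them out of the set. Of these 89 were lower in diabetic fat, with a median of −0.48.

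AAT-treated fat had higher signal than diabetic fat for most of the set, and the size of this difference rested on 1 array. Of the 44 genes 39 were higher, against 51.2% of all genes tested, and 5 were lower, against 48.8%, with a median of 0.44 (a fold of 1.36) beside 0.01 for all genes. Both AAT-treated arrays lay above both diabetic arrays for 22 genes (17.9% of all genes) and below both for 3 (15.9% of all genes). By limma 0 of 44 passed the adjusted threshold (0.0% of all genes), 2 higher genes had an unadjusted p under 0.05 (2.94% of all genes) and 0 lower ones did (1.83% of all genes). This comparison shares the diabetic arrays with the one before, so that its direction is not independent of it.

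The 2 AAT-treated arrays stood apart. AAT-treated 2 exceeded AAT-treated 1 for 39 of the 44 genes (57.1% of all genes), with a median of −0.69 for AAT-treated 1 minus AAT-treated 2 on the log2 scale, a gap larger than the median difference in any of the 3 comparisons. Diabetic 1 and 2 differed by a median of 0.19 and normoglycemic 1 and 2 by 0.15. Relative to the mean of the diabetic arrays the median of AAT-treated 1 was 0.12 and that of AAT-treated 2 was 0.89. AAT-treated 1 lay above both diabetic arrays for 24 genes (28.6% of all genes) and below both for 9 (35.9%), and AAT-treated 2 lay above both for 37 (44.1%). Without AAT-treated 2 the median difference was 0.12, with 29 of 44 higher; without AAT-treated 1 it was 0.89, with 40 higher. Genes with an unadjusted p under 0.05 numbered 18 of 44 without AAT-treated 1 (17 of them higher), beside 9.72% of all genes in either direction. They numbered 1 without AAT-treated 2, beside 1.99% of all genes, and 0 without diabetic 1, beside 3.82%. The beta-actin and Gapdh ratios were lower on AAT-treated 2 than on AAT-treated 1, as given above. The hybridisation controls of AAT-treated 2 were brighter, and the part of these measures in the gap was not tested.

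Rps2 was again the clearest gene, with signals of 23734 and 18057 in AAT-treated fat, against 6237 and 12266 in diabetic fat (1.24 ± 0.43, limma, unadjusted p = 0.0201, adjusted p = 0.962). It was one of the few genes with less signal on AAT-treated 2 than on AAT-treated 1. Rps3 had 18633 and 34206 in AAT-treated and 12674 and 12793 in diabetic fat, with the groups apart (0.98 ± 0.41, limma, unadjusted p = 0.0436). Rplp0 had 30628 and 64120 in AAT-treated and 22457 and 21728 in diabetic fat (1.002 ± 0.47). Its AAT-treated arrays differed from each other by more than AAT-treated 1 did from the diabetic ones.

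Rps26 differed by 0.82 ± 0.37, Rps27l by 0.84 ± 0.39 and Rpl6, of the large subunit, by 0.76 ± 0.39, each with both AAT-treated arrays above both diabetic ones. In the other direction, Rps27 had 636 and 289 in AAT-treated and 1097 and 870 in diabetic fat, with the groups apart (−1.05 ± 0.50). Rpl12 had 377 and 197 in AAT-treated and 639 and 400 in diabetic fat (−0.73 ± 0.43), and Rpl39l had 40.8 and 110 in AAT-treated and 147 and 296 in diabetic fat (−0.97 ± 0.71). Rpsa, the exception of the earlier comparison, had 39842 and 51509 in AAT-treated and 58715 and 41644 in diabetic fat, which overlap (−0.13 ± 0.43). Its difference was 0.06 without AAT-treated 1 and 0.12 without diabetic 1. Rpl27a had 1643 and 3273 in AAT-treated and 6575 and 926 in diabetic fat, a range in the diabetic group that spans both AAT-treated values (−0.11 ± 0.79).

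**Figure D4:**
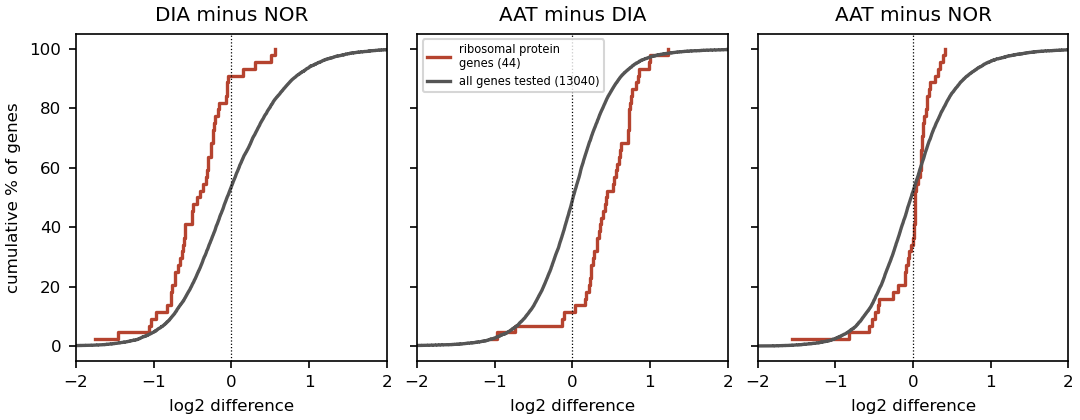
Cumulative share of genes (vertical, in percent) by log2 difference (horizontal), for the 44 ribosomal protein genes in red and all 13040 genes tested in grey, in each of the 3 comparisons. The red curve lies mostly left of the grey one for diabetic minus normoglycemic (medians −0.43 and −0.06), right of it for AAT-treated minus diabetic (0.44 and 0.01), and rises near 0 for AAT-treated minus normoglycemic (0.03 and −0.03).

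Between AAT-treated and normoglycemic fat the set was centred on 0. Of the 44 genes 29 were higher (48.0% of all genes) and 15 lower (52.0%), with a median of 0.03 and an interquartile range of −0.09 to 0.13. Groups were apart for 2 genes in each direction, where 16.1% of all genes were apart in each. These were Rpsa and Rpl8 among the higher, and Rps2 and Rpl27a among the lower. By limma 0 genes passed the adjusted threshold (0.0% of all genes), and 0 of the 44 had an unadjusted p under 0.05 in either direction (3.4% of all genes were higher and 1.72% lower at that p).

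That centre is a mean of arrays on either side of the normoglycemic ones. AAT-treated 1 lay below both normoglycemic arrays for 35 of the 44 genes (41.3% of all genes), with a median of −0.27, and AAT-treated 2 above both for 35 (33.4% of all genes), with a median of 0.39. Leaving one array out therefore turned the direction, to −0.27 without AAT-treated 2 (5 of 44 higher) and to −0.05 without normoglycemic 2 (19 of 44 higher). It was 0.39 without AAT-treated 1 and 0.12 without normoglycemic 1. The count of 0 genes with an unadjusted p under 0.05 became 1 without AAT-treated 2 (6.5% of all genes) or either diabetic array (4.03% of all genes each) and 2 without normoglycemic 2 (11.6% of all genes).

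Single genes in this comparison had wide errors. Rpl27a had 1643 and 3273 in AAT-treated fat, against 9108 and 5403 in normoglycemic fat (−1.56 ± 0.79, limma, unadjusted p = 0.0812, adjusted p = 0.923). Rps2 had 23734 and 18057 in AAT-treated and 28734 and 30971 in normoglycemic fat (−0.53 ± 0.43). Rpl4, of the exit tunnel, had 25798 and 46416 in AAT-treated and 27948 and 24357 in normoglycemic fat (0.41 ± 0.43), and its difference was −0.02 without AAT-treated 2. Rpsa was higher by 0.39 ± 0.43, Rps15 by 0.35 ± 0.42, Rpl13a by 0.32 ± 0.46, Rps10 by 0.29 ± 0.43 and Rpl8 by 0.18 ± 0.35. Rpl13a and Rps10 differed by −0.06 each without AAT-treated 2. Of the other genes on the lower side, Rps27 differed by −0.49 ± 0.50, Rpl12 by −0.43 ± 0.43, Rpl39 by −0.46 ± 0.48 and Rpl39l by −0.82 ± 0.71.

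Paralogues of ribosomal proteins gave differing values. Rps27l differed by −1.04 between diabetic and normoglycemic fat, where Rps27 was at 0.56, though the probe set of Rps27 is dim. Rps4l, a copy of the X-linked Rps4x, had 265 and 28.8 in AAT-treated, 35.0 and 228 in diabetic, and 63.4 and 486 in normoglycemic fat, a range within each group as wide as between groups. Rps4x had 30246 and 57587 in AAT-treated, 24645 and 24590 in diabetic, and 42220 and 34792 in normoglycemic fat, and differed by −0.64 ± 0.45 between diabetic and normoglycemic fat with the groups apart. Rpl22l1, outside the set for the digit that ends its symbol, had 7834 and 14396 in AAT-treated, 6439 and 3466 in diabetic, and 10439 and 9425 in normoglycemic fat. It differed by −1.06 ± 0.44 between diabetic and normoglycemic and by 1.16 ± 0.44 between AAT-treated and diabetic fat, beside −0.66 and 0.72 for Rpl22. Rpl39 had 707 and 697 in diabetic and 1679 and 933 in normoglycemic fat (−0.78 ± 0.48), with the groups apart, beside the overlapping groups of Rpl39l. Rpl7 differed by −0.63 ± 0.41. Rps3a1 and Rpl7l1, left out for the same reason, differed by −0.72 ± 0.46 and 0.10 ± 0.32 between diabetic and normoglycemic fat.

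Other parts of the translation machinery were set beside these genes. Fau, which encodes Rps30 fused to a ubiquitin-like protein, differed by −0.58 ± 0.48 between diabetic and normoglycemic fat and by 0.56 ± 0.48 between AAT-treated and diabetic fat. Of 17 other genes known for TOP messages 14 were tested. In diabetic against normoglycemic fat 13 of them were lower, beside 53.6% of all genes, with a median of −0.56. The groups were apart, with diabetic fat lower, for 11, beside 24.5% of all genes. Nap1l1, a histone chaperone, had 3175 and 4509 in diabetic and 10272 and 13112 in normoglycemic fat (−1.60 ± 0.36, limma, unadjusted p = 0.00191, adjusted p = 0.459). Eef1a1, which brings aminoacyl-tRNA to the ribosome, differed by −1.02 ± 0.55, Tpt1, a growth-related protein, by −0.68 ± 0.58 and Eef2, the translocation factor, by −0.20 ± 0.38.

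In AAT-treated against diabetic fat 13 of the same 14 genes were higher, beside 51.2% of all genes, with a median of 0.59. Nap1l1 differed by 1.29 ± 0.36 and Eif3h, a subunit of initiation factor 3, by 1.05 ± 0.38. Nap1l1 had 10692 and 8243 in AAT-treated fat, both above the 2 diabetic arrays. Against normoglycemic fat the median of the 14 was 0.02.

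Initiation factors had 23 of 33 lower in diabetic than in normoglycemic fat (median −0.29) and 25 of 33 higher in AAT-treated than in diabetic fat (median 0.32). Eif4a2, an RNA helicase of the cap complex, had 14822 and 25008 in AAT-treated, 7240 and 7818 in diabetic, and 23794 and 22661 in normoglycemic fat. Its differences were −1.62 ± 0.39 and 1.35 ± 0.39 in those comparisons (limma, adjusted p = 0.459 and 0.905). Eif3c, 1 of the 10 initiation factors that were higher in diabetic than in normoglycemic fat, differed by 0.95 ± 0.38 and −0.28 ± 0.38. Elongation and release factors had 7 of 9 lower in diabetic than in normoglycemic fat (median −0.35) and 7 of 9 higher in AAT-treated than in diabetic fat (median 0.48), among them Gspt1, a release factor, at −1.04 ± 0.34 and 0.89 ± 0.34.

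Ribosome biogenesis genes had 25 of 38 lower in diabetic than in normoglycemic fat, beside 53.6% of all genes, with a median of −0.25. Npm1, a nucleolar chaperone that has a TOP message itself, had 11187 and 19952 in AAT-treated, 8353 and 5014 in diabetic, and 19049 and 13161 in normoglycemic fat. It differed by −1.28 ± 0.44 between diabetic and normoglycemic and by 1.20 ± 0.44 between AAT-treated and diabetic fat. In AAT-treated against diabetic fat 23 of the 38 were higher (60.5%), a share not far from the 51.2% of all genes, with a median of 0.16. Ncl, nucleolin, differed by 0.93 ± 0.34.

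Of 13 genes that regulate ribosomal protein synthesis 8 were lower in diabetic than in normoglycemic fat (median −0.09), beside 53.6% of all genes. By limma 2 lower genes had an unadjusted p under 0.05 (4.62% of all genes) and 2 higher ones did (5.28% of all genes). Myc, a transcription factor that drives ribosome genes, had 343 and 492 in AAT-treated, 155 and 150 in diabetic, and 527 and 465 in normoglycemic fat. Both diabetic arrays lay below all 4 others. The differences were −1.33 ± 0.37 against normoglycemic fat (limma, unadjusted p = 0.00683, adjusted p = 0.461) and 1.10 ± 0.37 for AAT-treated against diabetic fat. Both diabetic Myc signals are under 164.5, the cut that the filter sets on mean signal, so the size of these differences is uncertain. Rheb, the activator of mTOR, differed by −1.24 ± 0.40 and 0.85 ± 0.40 in the same comparisons, and Mtor by −0.09 ± 0.31 and −0.23 ± 0.31. On the higher side in diabetic against normoglycemic fat, Rps6kb2, an S6 kinase, had 503 and 522 in diabetic and 38.2 and 243 in normoglycemic fat. It differed by 1.64 ± 0.56 (limma, unadjusted p = 0.0179, adjusted p = 0.481), with the signal of 38.2 under the same cut. Eef2k, the kinase that halts elongation, differed by 0.81 ± 0.30 (limma, unadjusted p = 0.0269). Between AAT-treated and normoglycemic fat Eif4ebp1, a repressor of initiation that mTOR inactivates, differed by −0.99 ± 0.37 and Eef2k by 0.95 ± 0.30.

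**Figure D5:**
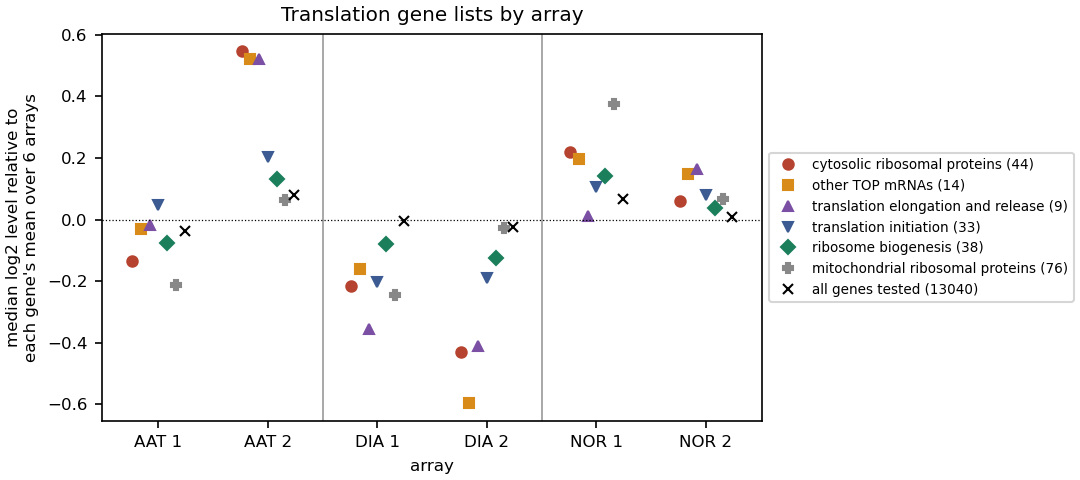
Median over each gene list of the log2 level relative to each gene's mean over 6 arrays (vertical), by array (horizontal), with the number of genes tested in brackets. The cytosolic ribosomal protein genes run from −0.43 on diabetic 2 to 0.55 on AAT-treated 2, while the median of all genes stays between −0.04 and 0.08.

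Mitochondrial ribosomal proteins, encoded by other genes and built into a separate ribosome, were mostly lower in diabetic than in normoglycemic fat too. Of 76 genes 61 were lower in diabetic than in normoglycemic fat, beside 53.6% of all genes, with a median of −0.34. Diabetic arrays lay below both normoglycemic ones for 38 of the 76, beside 24.5% of all genes, and above both for 5, beside 20.2%. In AAT-treated against diabetic fat 45 were higher (59.2%, not far from the 51.2% of all genes) and 31 lower, with a median of 0.07. Against normoglycemic fat 65 of the 76 were lower in AAT-treated fat, beside 52.0% of all genes, with a median of −0.33. The cytosolic genes had 15 of 44 lower and a median of 0.03, and the difference between the lists was not tested. Mrps18a differed by −1.29 ± 0.29 between diabetic and normoglycemic and by −1.21 ± 0.29 between AAT-treated and normoglycemic fat. Mrps15 differed by 0.56 ± 0.35 between diabetic and normoglycemic and by −0.90 ± 0.35 between AAT-treated and diabetic fat. By array the mitochondrial median was highest on normoglycemic 1 (0.37) and lowest on diabetic 1 (−0.25).

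The 618 other genes with the brightest 5% of probe sets had a median of 0.14 between diabetic and normoglycemic fat, with 262 lower, and a median of −0.12 between AAT-treated and diabetic fat.

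Markers of fat and of other cell types were read beside these results. Of 7 adipocyte markers 5 were tested, of which 3 were lower and 2 higher in diabetic than in normoglycemic fat, and 3 lower and 2 higher in AAT-treated than in diabetic fat. Their summed signal was 164935 and 279790 in AAT-treated, 168175 and 278338 in diabetic, and 449239 and 261524 in normoglycemic fat. Adipoq, the adipocyte hormone adiponectin, had 31858 and 15690 in AAT-treated, 20191 and 48984 in diabetic, and 41908 and 48729 in normoglycemic fat. All 6 smooth muscle markers were higher in AAT-treated than in diabetic fat (summed signal 53459.5 and 81932 against 13683 and 9476), with 6777 and 28146 in normoglycemic fat. The 3 tested B cell genes, Ighm, Jchain and Ms4a1, summed to 29479 and 9769 in AAT-treated, 893 and 4683 in diabetic, and 1490 and 1080 in normoglycemic fat, a sum carried by the antibody genes Ighm and Jchain. Ms4a1, the B cell surface protein CD20, had 214 and 535 in AAT-treated, 242 and 388 in diabetic, and 535 and 346 in normoglycemic fat, and Cd79a and Cd79b, defining markers, lay under the signal filter. No T cell marker was kept. Of 5 mammary epithelial markers 4 were tested. They summed to 9479 on AAT-treated 2, against 1133 on AAT-treated 1 and 1153 to 2965 on the other arrays. The largest parts of the AAT-treated 2 sum came from the keratins Krt18 (5150) and Krt8 (2237). Krt14, the marker not tested, lay under the signal filter and did not stand out on AAT-treated 2 (158, against 297 on normoglycemic 1). Macrophage markers were higher in diabetic than in normoglycemic fat in 7 of 7 (12671 and 26455 against 6709 and 6533), and red cell and platelet markers lower in 5 of 5 (2602 and 3196 against 9436 and 12148). The part of these cells in the ribosomal protein signals was not tested.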

How the data were processed

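The deposited values are MAS5 signal intensities on a linear scale, 1 column for each of 6 one-colour arrays, per the submitters' processing notes; the version is not given in the sources used here. Of 45101 probe sets, 64 controls were set aside, 34945 carried 1 gene symbol in the platform annotation, 932 several and 9160 none; 34741 matched RefSeq. Intensities as the authors deposited them were taken as log2(signal + 74), 74 being the 25th percentile, without renormalization. Probe sets with a mean signal above 164.5 (the 40th percentile) were kept, and the brightest stood for its gene. Group means were fitted with limma 3.58.1 in R 4.3.3 (lmFit, eBayes with trend) over 13040 genes, with Benjamini-Hochberg adjustment in each comparison. The comparisons share arrays. The fit was tested on simulated data with known changes. Groups came from the sample titles. Named genes were the 6 with the smallest p in each direction of each comparison, the brightest and dimmest, and fixed lists of subunit, paralogue and pathway genes. The members and lists were chosen with earlier results of these data known. Alternatives were other pseudocounts, no filter, other scaling, other probe set choices, robust eBayes, a replicate block, a control covariate and leaving out each array.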

Additional observations from a re-analysis of the deposited data

How the results depend on the processing

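Of the 44 genes 0 passed the adjusted threshold under any alternative run. Between diabetic and normoglycemic fat 2 genes had an unadjusted p under 0.05, which became 4 with quantile normalization, 4 with the mean over probe sets, 1 with the hybridisation-control covariate, and 1 to 5 with an array left out; the median was −0.16 with that covariate and −0.54 to −0.32 with an array left out. Between AAT-treated and diabetic fat the count of 2 became 1 with no filter, 4 with quantile normalization, 4 with the mean over probe sets, and 0 to 18 with an array left out, and the median was 0.12 to 0.89. Between AAT-treated and normoglycemic fat the count was 0 with all arrays in the main setting, beside 5.12% of all genes. The median ran from −0.27 to 0.39, reversed at −0.27 and −0.05. The cause was not tested. With an array left out of a group, the remaining array is assumed to vary like the other groups.

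Single genes turned direction as follows. Between diabetic and normoglycemic fat Rpl12 was at −0.21 with the covariate. With an array left out, Rps27 ran from −0.089 (without normoglycemic 2) to 1.21 and Rpl39l from −0.69 (without normoglycemic 2; −0.22 without diabetic 2) to 0.999. Between AAT-treated and diabetic fat Rpsa ran from −0.37 to 0.12 (without diabetic 1; 0.059 without AAT-treated 1) and Rpl27a from −1.47 to 1.26 (without diabetic 1; 0.38 without AAT-treated 1). Between AAT-treated and normoglycemic fat Rps10 was at −0.23 with the mean over probe sets. Without AAT-treated 2 and without AAT-treated 1, Rpl4 was at −0.016 and 0.83, Rpl13a at −0.063 and 0.69, Rps10 at −0.060 and 0.64, and Rpl39 at −1.13 and 0.21. Without normoglycemic 2 and without normoglycemic 1, Rpl39l was at −1.67 and 0.024 and Rps27 at −1.14 and 0.15. Direction and side of the threshold were kept by 138 of 159, 147 of 175 and 179 of 191 values of named genes in the 3 comparisons. Some settings could not turn a direction: robust eBayes, the replicate block, and leaving out an array of the group outside the comparison. Most named genes lay above the unadjusted threshold to begin with, so that keeping their side mostly meant staying above it.

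The titles number the replicates and name no pairing. Same-numbered deviations correlated at −0.12 for AAT-treated with diabetic, −0.51 for AAT-treated with normoglycemic and 0.08 for diabetic with normoglycemic arrays. Such correlations cannot tell whether arrays were paired by animal or in processing. With the replicate number as a block the medians were −0.43, 0.44 and 0.03. They could not change, since each group holds 1 array of each number, so they say nothing about pairing. The members with an unadjusted p under 0.05 were then 2 lower between diabetic and normoglycemic fat, 1 higher and 1 lower between AAT-treated and diabetic fat (2 higher without the block), and 0 between AAT-treated and normoglycemic fat, while all genes with an unadjusted p under 0.05 numbered 895, 452 and 502, against 1291, 622 and 668 without it. The name rule that takes in Rps3a1, Rpl7l1 and Rpl22l1, and the probe sets with several symbols, were chosen after seeing the data.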
